A study of Mus musculus with 4 samples.

Results

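Natural killer (NK) cells and type 1 innate lymphoid cells (ILC1) of healthy mouse liver made up 84 of the 1593 CD45+ cells kept, 5.27% of them. They were chosen by the transcripts they held: UMIs (counted molecules) of at least 2 of the 6 genes Ncr1, Klrb1c, Gzma, Klre1, Klra9 and Eomes, with Ncr1 or Klrb1c among them, and no UMI of the T cell genes Cd3d, Cd3e and Trac or of the B cell gene Cd79a. All cells were CD45+ leukocytes of healthy PA-GFP C57BL/6 mice, whose cells carry a photoactivatable fluorescent protein, and all were photoactivated. PV libraries held cells of the portal vein zone of the liver, and CV libraries held cells of the central vein zone, with 2 libraries per zone (PV 1, PV 2, CV 1 and CV 2). The labels give neither age nor sex, nor whether each library had its own mouse, so the spread between libraries may be technical. The p-values of edgeR also rest on spread shared across genes, and not on the libraries alone.

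NK cells and ILC1 are the innate relatives of T cells. They kill with the contents of granules, perforin and granzymes, and they release chemokines and interferon gamma, without a rearranged antigen receptor. NK cells circulate and depend on the transcription factor Eomes, whereas ILC1 stay in the tissue, and the mouse liver is a classical site of them. Many liver T cells in mice are NKT cells, which carry some of the same receptors, so T cells were the closest class to set the NK cells and ILC1 against.

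The 4 deposited libraries held 588 to 755 barcodes and 2741760 to 4373488 UMIs each. Barcodes numbered 1939, of which 282 occurred in several libraries, and each of these was kept only where at least 70% of its UMIs lay; 12 of the 84 NK cells and ILC1 had such a barcode. The kept NK cells and ILC1 held 28976 UMIs in PV 1 and 112568 in PV 2, against 123215 in CV 1 and 146058 in CV 2. PV 1 was thus the shallowest, with 7 cells. Its cells had a median of 4233 UMIs, those of PV 2 5493.5, those of CV 1 4415.5 and those of CV 2 4450. The median mitochondrial share was 2.74% and 1.77% in PV and 1.68% and 1.67% in CV. T cells of the same libraries were deeper, with medians of 6025.5 to 6449 UMIs.

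The genes that chose the cells are given as a description, with no test. Ncr1, the activating receptor NKp46, had a UMI in 75 of 84 NK cells and ILC1, against 2.13% of 751 T cells and 0 of 157 B cells (at least 2 Cd79a UMIs) and 0 of 249 macrophages (at least 5 UMIs of C1qa, C1qb and C1qc). Klrb1c, which encodes the NK1.1 antigen, had a UMI in 79 of them and in 64.7% of T cells, so it did not separate the classes alone. Klre1, a killer lectin-like receptor, was found in 77 cells and in 21.2% of T cells, and Gzma, which encodes granzyme A, in 62 cells and in 3.99% of T cells. Klra9 was found in 36 cells, and Eomes in only 12. Gzma stood at 10768 and 8182 CPM (UMIs per 1000000 of the summed UMIs of these cells) in the PV libraries and 7994 and 7668 CPM in the CV libraries, and Ncr1 at 794 and 755 CPM in the PV libraries and 958 and 1013 CPM in the CV libraries.

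The limit of the selection cut through few cells on the gene side and more on the T cell side. Of the 84 cells, 3 held the minimum of 2 of the 6 genes, 22 held 3, 31 held 4, 23 held 5 and 5 held all 6. Just outside, 4 cells held only Ncr1 or Klrb1c, 2 held at least 2 of the genes without either of these, 16 failed by a single UMI of Cd3d, Cd3e or Trac, and 151 had at least 2 such UMIs. Other cell types were checked by marker lists. All markers of ILC2 and ILC3, of sinusoidal endothelium and of mast cells and basophils were at 0 in the NK cells and ILC1. B cell markers summed to 69.0 to 203 CPM, with Cd79a and Ms4a1 among those at 0, and neutrophil markers to 6.85 to 34.5 CPM. The T cell list stood at 1510.2 to 2499.7 CPM against 6771 to 7266 CPM in T cells. Of its 12 genes 6 were at 0, namely Cd3d, Cd3e and Trac, which the selection excluded, and Cd8b1, Cd5 and Cd6, which it did not use.

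The share of NK cells and ILC1 among leukocytes was compared between the zones. It was 7 of 333 cells in PV 1 (2.10%, 95% Wilson interval 1.02 to 4.27) and 18 of 512 in PV 2 (3.52%, 2.24 to 5.49). It was 28 of 372 in CV 1 (7.53%, 5.26 to 10.7) and 31 of 376 in CV 2 (8.24%, 5.87 to 11.5). These intervals cover counting error only. Both PV libraries lay below both CV libraries, with means of 2.81% ± 1.0 in PV and 7.89% ± 0.508 in CV (SD, n = 2 each), a log2 odds ratio of -1.61. An exact two-sided permutation test gave p = 0.333, the smallest that 2 against 2 libraries allow. With all cells thinned to 2000 UMIs, without the 21, 27, 25 and 23 cells shallower than that, the shares were 1.28% and 3.51% in PV and 7.49% and 8.78% in CV. With barcodes shared between libraries kept, the log2 odds ratio was -0.70, and PV 1 then held 23 such cells of 551. The share of T cells was 60.4% and 41.8% in PV and 45.2% and 44.7% in CV, so the zones overlapped there.

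**Figure D1:**
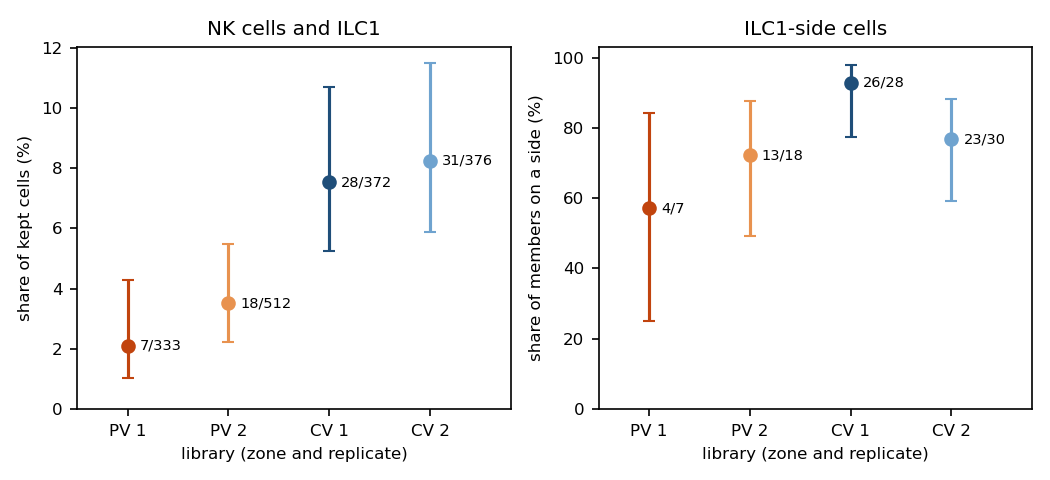
Share of NK cells and ILC1 among kept CD45+ cells (left, percent) and of ILC1-side cells among those on a side (right, percent) in each library. Points are shares with their cell numbers, and bars are 95% Wilson intervals; both PV libraries lie below both CV libraries in both panels.

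The NK cells and ILC1 were then set against the T cells of the same library, which asks what sets these cells apart beyond the genes that chose them. Many granule genes and lectin-like receptors and the activating adaptors Tyrobp and Fcer1g were higher in the NK cells and ILC1, and Cd40lg, Il4, Icos, Cd28, Lat and Plcg1 were lower. Of 6029 genes tested on summed UMIs with edgeR's quasi-likelihood test (library as a block, Benjamini-Hochberg adjusted p under 0.05), 463 passed (7.68%), 182 of them higher (3.02%) and 281 lower (4.66%). All 4 libraries of NK cells and ILC1 lay on 1 side of all 4 of T cells for 154 of the 182 and 235 of the 281. The 10 genes that defined the classes were left out of the test, but genes that go with them in a cell are not independent of the choice. Without CV 2, 302 genes passed.

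Killer lectin-like receptors, encoded side by side in the NK gene complex and read by NK cells as signs of normal or stressed cells, were the list with the most genes higher. Of 24 members in the data 13 were tested, and 3 were left out because they chose the cells. Of the 13, 11 were higher and 0 lower, with a median log2 fold change of 2.12, against -0.03 over all genes. Genes nearly absent from T cells, such as Klra8 and Klrb1a, could pass the filter on low counts only through the NK cells and ILC1. For these the direction was set before the test, so the count is a description. Klra8, the activating receptor Ly49H that recognises a cytomegalovirus protein, stood at 483 and 151 CPM in the PV libraries and 48.7 and 342 CPM in the CV libraries in the NK cells and ILC1. In T cells it had 1 UMI in all 4 libraries (log2 fold change 9.11 ± 0.56 (SE), edgeR adjusted p = 3.92e-10). Klrb1b, an inhibitory receptor of the NK1.1 family, stood at 449, 382, 649 and 404 CPM in PV 1, PV 2, CV 1 and CV 2, against 10.3, 5.4, 2.82 and 19.3 CPM in T cells (5.38 ± 0.34). Klrb1a and Klri2 of the same gene complex were higher by 5.87 ± 0.48 and 4.80 ± 0.48. The difference was smaller for receptors that T cells also carry: Klrd1, the CD94 partner of NKG2 receptors, by 1.81 ± 0.18, Klrk1 (NKG2D) by 1.69 ± 0.20, Klrc2 by 1.82 ± 0.21 and the inhibitory Klrc1 by 1.33 ± 0.31. Klrc1 did not separate the libraries, since PV 1 held 69.0 CPM (2 UMIs) of it in NK cells and ILC1, below the T cell range of 102 to 223 CPM, while the other 3 libraries lay above it at 453 to 779 CPM.

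By position, 23 of the receptor genes span chromosome 6 from 128609227 to 130386874 (GRCm38, GENCODE vM21). In that span 17 genes were tested, 11 were higher (64.7%, against 3.02% of all genes tested) and 0 lower, and all 11 were receptor genes of the list. The span was drawn by the list, so this repeats the count of the list and is no separate result for the locus. The Klra genes are near-identical copies of one another, so that counts of a single member are uncertain where reads could fall to a neighbour.

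The contents of the killing granules were higher too, in 8 of 15 members tested, with 0 lower and a median of 0.77. Gzmb, which encodes granzyme B, stood at 932 and 2239 CPM in the PV libraries and 3522 and 2054 CPM in the CV libraries, against 213, 363, 333 and 442 CPM in T cells (2.38 ± 0.19, edgeR adjusted p = 1.01e-08). Gzmc, a further granzyme, was higher by 5.41 ± 0.45 and reached at most 5.15 CPM in T cells. Prf1, the pore-forming perforin, stood at 449 and 258 CPM in the PV libraries and 252 and 397 CPM in the CV libraries, against 22.8 to 51.1 CPM in T cells (3.11 ± 0.25). Nkg7, a granule membrane protein, and Ctsw, cathepsin W, were common to both classes, with a UMI in 96.4% and 91.7% of NK cells and ILC1 and in 91.3% and 85.5% of T cells, and both were higher by 0.77. Serpinb9, an inhibitor that shields the killer from its own granzyme B, was higher by 2.09 ± 0.29, and Cst7, cystatin F, by 1.70 ± 0.29.

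**Figure D2:**
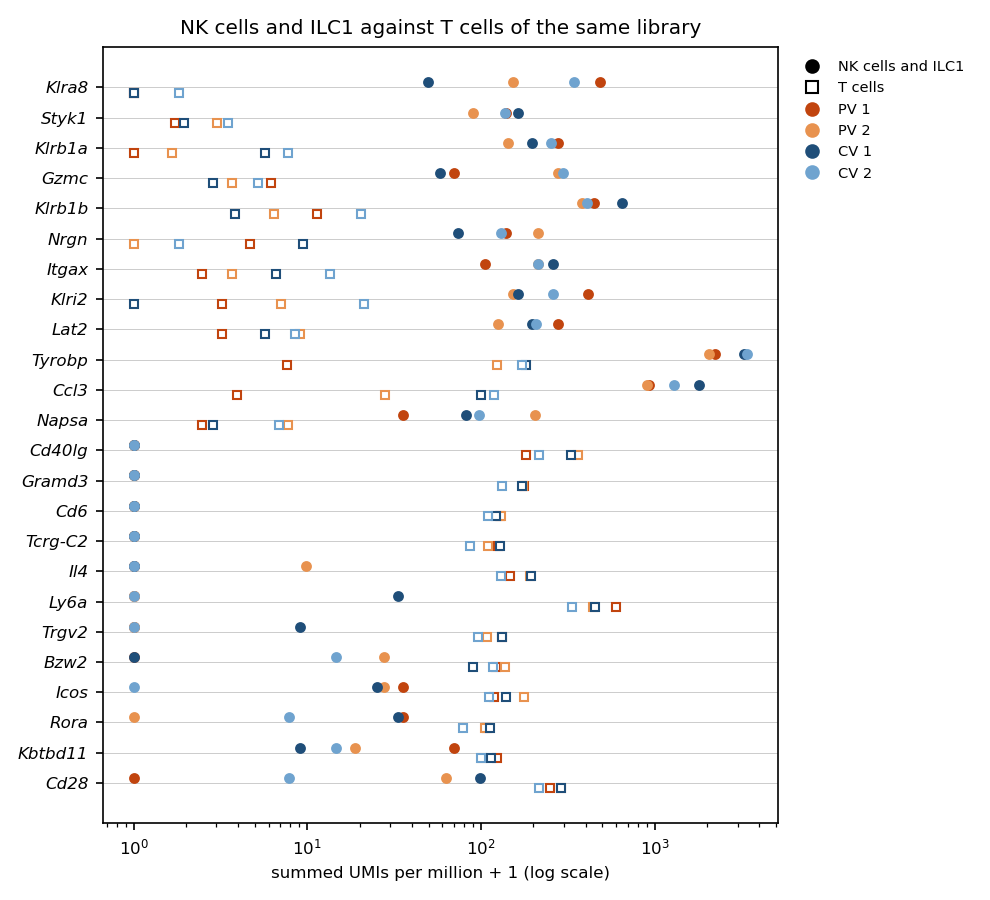
Level of the 12 genes with the largest fold change in each direction, as CPM plus 1 on a log axis, in NK cells and ILC1 (filled circles) and in T cells (open squares) of each library (colour). The upper 12 genes are higher in NK cells and ILC1 in all 4 libraries and the lower 12 are lower, with Cd40lg, Gramd3, Cd6 and Tcrg-C2 at 0 in all 4.

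Among secreted signals and death ligands, 5 of 10 members tested were higher and 0 lower (median 0.84). Ccl5, a chemokine that attracts T cells and monocytes, had 294 and 1093 UMIs in PV and 1822 and 2869 in CV, which is 10146 and 9709.7 CPM in the PV libraries and 14787 and 19643 CPM in the CV libraries, against 2061 to 3023 CPM in T cells (2.14 ± 0.14). Ccl4 and Ccl3, chemokines that attract leukocytes, were higher by 4.30 ± 0.34 and 4.45 ± 0.36. Ccl4 stood at 6764, 4059.8, 8441 and 3423 CPM in PV 1, PV 2, CV 1 and CV 2, against 91.3 to 465 CPM in T cells. Xcl1, the ligand of the dendritic cell receptor XCR1, stood at 3175 and 1457 CPM in the PV libraries and 3409 and 3184 CPM in the CV libraries, against 413 to 923 CPM in T cells (1.92 ± 0.15), and the death ligand Tnfsf10 (TRAIL) was higher by 1.29 ± 0.28. Ifng was not among them. It stood at 276, 515, 446 and 815 CPM in NK cells and ILC1 and 205, 441, 556 and 202 CPM in T cells, and the classes overlapped (0.39 ± 0.28, edgeR adjusted p = 0.566).

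Signalling adaptors went both ways. Tyrobp (DAP12), which carries the activating motif for many NK receptors, stood at 2209 and 2061 CPM in the PV libraries and 3246 and 3403 CPM in the CV libraries, against 6.62 to 180.4 CPM in T cells (4.57 ± 0.36). Fcer1g, the chain that serves NKp46 and the Fc receptor CD16, stood at 3486 and 2878 CPM in the PV libraries and 3287 and 3348 CPM in the CV libraries, against 16.2 to 243 CPM in T cells (4.38 ± 0.36). Hcst (DAP10), the adaptor of NKG2D and the neighbour of Tyrobp on chromosome 7, stood at 648 to 1315 CPM in NK cells and ILC1 and 839.9 to 890.1 CPM in T cells (-0.20 ± 0.17, edgeR adjusted p = 0.649). Of 16 signalling genes tested (median -0.39), 5 were higher (Fcer1g, Tyrobp, the kinase Syk, Lat2 and Sh2d1b1, an adaptor of SLAM family receptors) and 3 lower (Lat and Plcg1, which act below the T cell receptor, and Sh2d1a, a further SLAM adaptor). Lat2, a relative of Lat, was higher by 4.73 ± 0.41, while Lat itself fell by 1.70 on the log2 scale. The kinase Zap70 had -0.34 ± 0.28 and did not pass. Among other receptors 5 of 9 were higher, with Cd244a (2B4) at 4.15 ± 0.36, Lag3 at 3.66 ± 0.50 and Fcgr3 (CD16) at 3.02 ± 0.59, and Slamf6 was lower, with 0 UMIs in all 4 libraries of NK cells and ILC1.

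Of 24 transcription factors tested, 6 were higher and 4 lower. Nfil3, needed to make NK cells, was higher by 2.82 ± 0.54, Tox by 1.79 ± 0.27, Runx3 by 1.26 ± 0.20, Irf8 by 2.74 ± 0.31, Zeb2 by 2.20 ± 0.57 and Ahr by 1.69 ± 0.44. Tcf7, Lef1, Rora and the T cell commitment factor Bcl11b were lower, by -2.77 ± 0.54, -2.52 ± 0.37, -2.93 ± 0.48 and -1.52 ± 0.31. Tbx21 (T-bet), shared by NK cells, ILC1 and NKT cells, stood at 69.0 to 151 CPM, against 51.1 to 60.1 CPM in T cells, and did not pass (0.82 ± 0.29, edgeR adjusted p = 0.109). Id2 stood at 977 to 1616 CPM, against 1285 to 1543 CPM in T cells. Of 18 cytokine receptors, Il18rap was higher and Il2ra and Il7r were lower, and Il2rb, the shared IL-2 and IL-15 receptor chain, had 0.40 ± 0.18 (edgeR adjusted p = 0.242).

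T cell genes outside the selection were lower. Cd40lg, the helper signal to B cells, had 0 UMIs in NK cells and ILC1 and 1387 in T cells, which makes it at least 37.3-fold lower when 3 counts over the group are taken as the floor. By the same floor Gramd3 was at least 22.4-fold, Cd6 at least 16.8-fold and the gamma chain segment Tcrg-C2 at least 15.2-fold lower. The 4 markers of gamma delta T cells did not go together: Tcrg-C1 was also lower, Trdc did not pass, and Tcrg-C4 stood at 0, 35.5, 179 and 239.6 CPM against 77.0 to 117 CPM in T cells (0.20 ± 0.38). Their sum was 34.5 and 71.1 CPM in the PV libraries and 235 and 294 CPM in the CV libraries, against 291 to 408 CPM in T cells. Il4, a cytokine of NKT and T helper cells, had 1 UMI in NK cells and ILC1 and 842 in T cells. The costimulatory receptors Icos and Cd28 fell by 3.19 and 2.69 on the log2 scale, and of 9 T cell markers tested 8 were lower. Cd3g, which the selection did not use, was lower but far from absent: it stood at 897 and 773 CPM in the PV libraries and 966 and 911 CPM in the CV libraries, against 1258 to 1440.2 CPM in T cells (-0.85 ± 0.14), with a UMI in 52.4% of NK cells and ILC1. Trbc1, the constant segment of a T cell receptor beta chain, was lower in level, at 414, 302, 901 and 753 CPM in NK cells and ILC1 against 862 to 950.2 CPM in T cells (-0.89 ± 0.21), although a UMI of it was found in 84.5% of NK cells and ILC1 and in 64.8% of T cells.

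Of 23 trafficking and residency genes tested 7 were higher, among them Itgax at 4.92 ± 0.39, Itga1 (CD49a, an adhesion receptor of tissue-resident cells) at 1.12 ± 0.29 and Rgs1 at 1.63 ± 0.21. The chemokine receptors Cxcr6 and Ccr7 were lower. Of 14 genes of NK maturation 9 were higher and 3 lower, with Cd7 at 3.36 ± 0.15 and S100a4 at 2.28 ± 0.22. Of 22 immediate early and stress genes 2 were higher and 2 lower, of 9 cell cycle genes 0 were higher and 4 lower (Mki67, Top2a, Stmn1 and Tubb5), and of 11 interferon response genes 0 passed in either direction. Over all 6029 genes 7.68% passed, so 0 calls among 11 genes say nothing particular about the interferon response. Apoe and Apoc1, transcripts of hepatocytes and macrophages, were lower, at 0 to 275 and 0 to 62.2 CPM against 22.8 to 996 and 1.47 to 199 CPM in T cells. Macrophage markers stood beside them at 0 to 888 CPM in NK cells and ILC1 and 7.36 to 1585 CPM in T cells. When cells with macrophage transcripts were left out, Apoe had a log2 fold change of 0.84 (edgeR adjusted p = 0.207).

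Within the 84 cells, ILC1 and NK cells were separated by 7 genes each: Itga1, Cd200r1, Cxcr6, Tmem176a, Tmem176b, Il7r and Tnfsf10 for the ILC1 side, and for the NK side a list with Eomes, Itga2, Itgam, S1pr5, Klra4 and Klra8 among its genes. A cell was put on the side of which it had UMIs of more genes. This gave 66 ILC1-side cells, 17 NK-side cells and 1 cell on neither side. The sides are ranges of a gene count: 14 cells were decided by a single gene, and 18 held genes of both sides. By construction the genes differed, and their values are a description. Eomes had a UMI in 1 of 66 ILC1-side and 11 of 17 NK-side cells, and Klra8 in 4 of 66 and 10 of 17. Itga1 had a UMI in 43 of 66 ILC1-side and 0 of 17 NK-side cells, and Cxcr6, a receptor that holds cells in liver sinusoids, in 44 of 66 and 0 of 17. Some side genes were rarer: Il7r was found in 13 and Tmem176a in 20 of 66 ILC1-side cells, and Itga2 in 5 of 17 NK-side cells. The ILC1-side list summed to 1123 to 2174 CPM in NK cells and ILC1 and to 1489 to 1722 CPM in T cells. Its sum thus did not separate these classes. The sides had similar depth, with medians of 4786.5 UMIs on the ILC1 side and 4287 on the NK side.

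**Figure D3:**
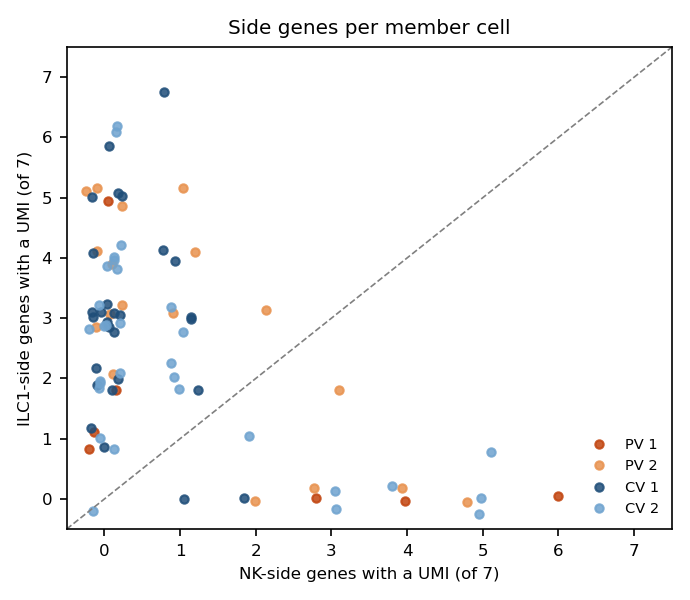
Number of the 7 ILC1-side genes (vertical) against the number of the 7 NK-side genes (horizontal) with a UMI in each of the 84 cells, jittered and coloured by library, with the line of equal numbers dashed. Most cells lie along the axes, with 66 above the line and 17 below it.

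By zone, 4 and 13 cells were on the ILC1 side in PV 1 and PV 2 and 26 and 23 in CV 1 and CV 2, and 3 and 5 were on the NK side in PV and 2 and 7 in CV. The ILC1 side thus held 57.1% and 72.2% of the cells on a side in PV (95% Wilson intervals 25.05 to 84.2 and 49.1 to 87.5) and 92.9% and 76.7% in CV (77.4 to 98.02 and 59.1 to 88.2). The means were 64.7% ± 10.7 in PV and 84.8% ± 11.4 in CV (SD, n = 2 each), a difference of -20.1 percentage points. An exact two-sided permutation test gave p = 0.333, the smallest possible. The lower PV share came with few cells, since PV 1 held 7, and with shared barcodes kept the difference was -4.53 points. Without PV 1 it was -12.5 points and without CV 1 it was -12.0 points.

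Genes outside those lists were tested between the sides within PV 1, PV 2 and CV 2, the libraries with at least 3 cells on each side. ILC1-side cells carried more Xcl1, Ltb, Cd7, Cd226 and S100a4, and NK-side cells more perforin and more of the transcription factors Irf8, Zeb2 and Klf2. Of 358 genes tested with edgeR's quasi-likelihood test, 33 passed (9.22%), 15 higher (4.19%) and 18 lower (5.03%) on the ILC1 side, and 67 had an unadjusted p under 0.05. Without the filter on low counts 10571 genes were tested, 45 passed and 17 of these were among the 33. Genes with few UMIs on 1 side, such as Ltb, S100a4, Cd226, Cd3g, Irf8 and Zeb2, could pass that filter only through the other side. For these the direction was set before the test. The sums held 17050, 88203 and 111966 UMIs on the ILC1 side and 11926, 24365 and 31878 on the NK side, so the NK side rests on 15 cells. When a side had to lead by 2 genes, PV 1 kept only 2 ILC1-side cells and dropped out of the test. In PV 2 and CV 2 then 0 genes passed, with 85 at an unadjusted p under 0.05. DESeq2 called 13 of the 33.

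Xcl1 stood at 5396, 1746 and 4037 CPM on the ILC1 side of PV 1, PV 2 and CV 2, against 0, 410.4 and 345 CPM on the NK side (3.46 ± 0.41, edgeR adjusted p = 2.44e-10). Over all 4 libraries it had a UMI in 62 of 66 ILC1-side cells and 4 of 17 NK-side cells, and the sums of the sides did not overlap. Ltb (lymphotoxin beta, a signal for lymphoid tissue) had 127 UMIs on the ILC1 side and 1 on the NK side, and S100a4, a calcium-binding protein, 308 and 1. Cd226 (DNAM-1, an activating receptor) stood at 469, 419 and 411 CPM on the ILC1 side, against 0, 41.0 and 31.4 CPM on the NK side (3.74 ± 0.85). Cd7 was higher by 3.68 ± 0.44, Fgl2 by 2.80 ± 0.54, Rgs1 by 2.37 ± 0.43 (in each library, though 704 CPM on the ILC1 side of PV 1 lay below 903 CPM on the NK side of PV 2), Ly6e by 2.16 ± 0.46 and S100a6 by 1.74 ± 0.37.

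Prf1 stood at 352, 102 and 179 CPM on the ILC1 side, against 587, 821 and 1192 CPM on the NK side, and the sides did not overlap (-2.43 ± 0.44, edgeR adjusted p = 1.45e-05). It had a UMI in 33 of 66 ILC1-side and 17 of 17 NK-side cells. Gzmb did not follow it, with a UMI in 59 of 66 and 16 of 17 cells (0.96 ± 0.36, edgeR adjusted p = 0.0855), nor did Ifng (-0.33, edgeR adjusted p = 0.746). Irf8 stood at 58.7, 102 and 44.7 CPM on the ILC1 side, against 1174, 1149 and 816 CPM on the NK side (-3.82 ± 0.48). Zeb2, a factor of terminal NK maturation, stood at 0, 181 and 0 CPM on the ILC1 side, against 1174, 575 and 408 CPM on the NK side (-3.28 ± 0.65). Klf2, which promotes exit from tissues, had -3.03 ± 0.45. Of 9 NK maturation genes tested, 3 were higher on the ILC1 side (Cd7, S100a4 and S100a6) and 3 lower (Lgals1, Emp3 and Anxa2, with Lgals1 at -1.63 ± 0.35). Of 7 killer lectin receptors tested 0 passed in either direction. Since 9.22% of all 358 genes passed, 0 calls among 7 genes say nothing particular about these receptors. That test left out 5 receptors used by the selection or the sides. Among them were Klra8 and Klra4, the latter with a UMI in 1 of 66 ILC1-side and 8 of 17 NK-side cells.

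**Figure D4:**
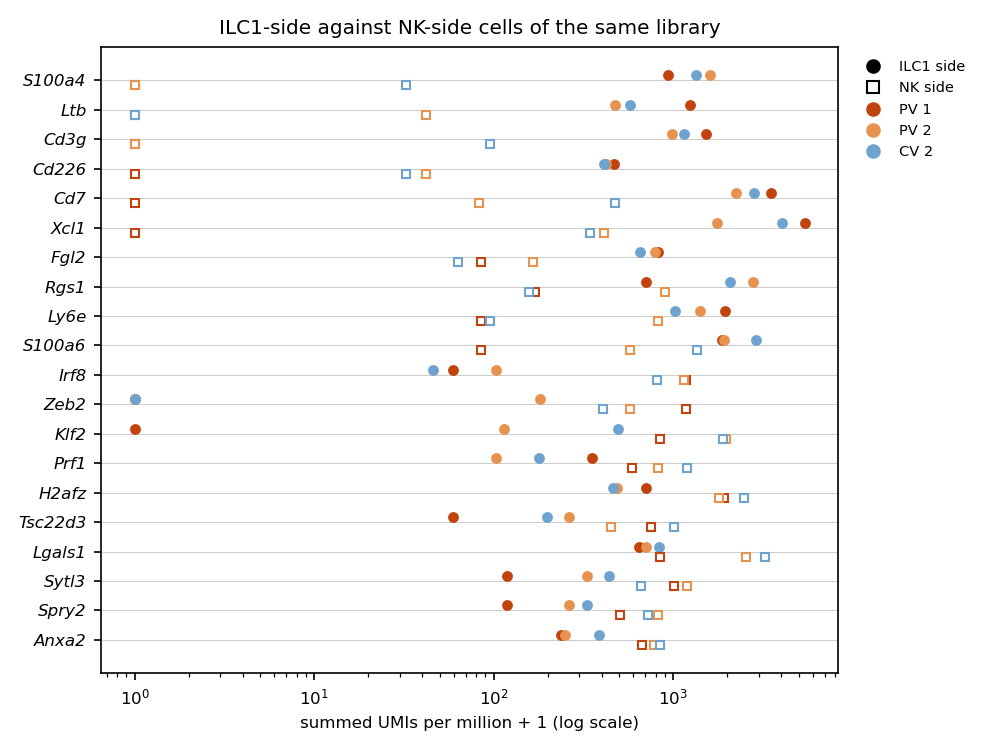
Level of the genes named between the sides, as CPM plus 1 on a log axis, on the ILC1 side (filled circles) and the NK side (open squares) of PV 1, PV 2 and CV 2. The upper 10 genes are higher and the lower 10 lower on the ILC1 side of each of these libraries.

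Of the T cell markers outside the selection, Cd3g was the 1 gene tested between the sides. It stood at 1525, 986 and 1143 CPM on the ILC1 side, against 0, 0 and 94.1 CPM on the NK side (4.69 ± 0.63, edgeR adjusted p = 7.03e-09), with a UMI in 42 of 66 and 1 of 17 cells. The gamma chain segment Tcrg-C4 had a UMI in 28 of 66 ILC1-side and 0 of 17 NK-side cells, Trbc1 in 59 of 66 and 12 of 17, and Trdc in 6 of 66 and 2 of 17. Cd3d, Cd3e and Trac were at 0 in all of these cells by the selection. The part of T cells with undetected Cd3d, Cd3e and Trac in the ILC1 side was not tested. When cells with up to 1 UMI of these genes were admitted, 16 genes passed between the sides, 15 of them among the 33.

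The promoters of Ncr1, which led the selection, and of Xcl1 and Prf1, which went opposite ways between the sides, are shown from 250 bases before to 50 after the start, from RefSeq on GRCm38.p6. Capitals mark the letters TGTGGT, the core bound by Runx factors, or its reverse complement ACCACA, and TCACACC, the core bound by T-box factors such as Eomes and T-bet, or its reverse complement GGTGTGA. The motifs share no overlap in these windows. The first lies in 16.8% of all 32851 promoter windows of the same length and the second in 3.98%.
Ncr1, chr7:4337465-4337764, plus strand: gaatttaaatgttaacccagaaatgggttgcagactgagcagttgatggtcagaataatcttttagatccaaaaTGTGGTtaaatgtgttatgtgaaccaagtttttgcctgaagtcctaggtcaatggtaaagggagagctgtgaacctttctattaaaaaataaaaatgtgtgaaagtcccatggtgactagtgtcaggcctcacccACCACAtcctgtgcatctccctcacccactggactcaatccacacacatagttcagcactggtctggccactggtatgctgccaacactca
Xcl1, chr1:164935473-164935772, minus strand: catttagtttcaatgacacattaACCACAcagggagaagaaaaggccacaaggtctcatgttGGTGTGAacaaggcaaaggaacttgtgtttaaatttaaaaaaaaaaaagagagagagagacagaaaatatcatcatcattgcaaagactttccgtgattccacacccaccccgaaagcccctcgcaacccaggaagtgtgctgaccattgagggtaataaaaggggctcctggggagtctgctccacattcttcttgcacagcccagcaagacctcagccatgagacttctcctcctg
Prf1, chr10:61297586-61297885, plus strand: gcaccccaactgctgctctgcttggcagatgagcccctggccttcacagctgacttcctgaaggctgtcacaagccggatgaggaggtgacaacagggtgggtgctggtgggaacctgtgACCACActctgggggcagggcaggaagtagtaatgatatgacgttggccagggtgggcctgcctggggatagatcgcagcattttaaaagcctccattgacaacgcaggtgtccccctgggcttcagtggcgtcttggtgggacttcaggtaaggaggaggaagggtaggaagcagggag
The Ncr1 window, 1 of 2 listed for that gene, holds the Runx letters at 2 places and the T-box letters at 0, the Xcl1 window holds each at 1 place, and the Prf1 window holds the Runx letters at 1 place and the T-box letters at 0. These are matches of letters and not shown to be bound. Runx3 was higher in NK cells and ILC1 than in T cells, at 345 and 346 CPM in the PV libraries and 292 and 404 CPM in the CV libraries against 94.9 to 147 CPM in T cells. Between the sides Runx3 did not pass (0.64 ± 0.53, edgeR adjusted p = 0.65), and a link of Runx3 to these promoters was not tested.

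Gene levels of the NK cells and ILC1 were last compared between the zones. Ccl5 and Cd160 were lower in PV cells than in CV cells, and Cd74 was higher. Of 1984 genes tested with edgeR's quasi-likelihood test, these 3 passed (0.151%), 1 higher (0.0504%) and 2 lower (0.101%), with 128 at an unadjusted p under 0.05. By DESeq2 0 genes passed, with 27 at an unadjusted p under 0.05.

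Ccl5 stood at 10146 and 9709.7 CPM in the PV libraries and 14787 and 19643 CPM in the CV libraries, with both PV libraries below both CV libraries (-0.81 ± 0.15, edgeR adjusted p = 0.0281). Cd160, a receptor of the immunoglobulin family on NK cells, ILC1 and some T cells, had 5 and 17 UMIs in PV and 84 and 89 in CV, which is 173 and 151 CPM in the PV libraries and 682 and 609 CPM in the CV libraries (-2.04 ± 0.37, edgeR adjusted p = 0.0281). In T cells Cd160 stood at 136 and 188 CPM in the PV libraries and 194 and 229 CPM in the CV libraries, and Ccl5 at 2652 and 2061 CPM in the PV libraries and 3023 and 2309 CPM in the CV libraries. Cd74, the invariant chain of MHC class II, had 3 and 632 UMIs in PV and 6 and 3 in CV (6.47 ± 0.99, edgeR adjusted p = 0.00955), and PV 1 was near the CV libraries. Of the 632 UMIs in PV 2, 627 lay in 3 cells with at least 10 UMIs of H2-Aa and H2-Ab1. These held 6363 to 20149 UMIs each. With edgeR's robust fit Cd74 did not pass (adjusted p = 0.884). The dendritic cell list, which holds both H2 genes, stood at 34.5 and 4273 CPM in the PV libraries and 40.6 and 13.7 CPM in the CV libraries.

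Without these 3 cells, Cd160 had -1.69 (edgeR adjusted p = 0.129) and Ccl5 -0.57 (edgeR adjusted p = 0.27). The ILC1 side was smaller in PV, and among ILC1-side cells alone 0 of 1745 genes passed, with 106 at an unadjusted p under 0.05. Ccl5 there had -0.76 ± 0.17 and Cd160 -1.83 ± 0.37, each with an edgeR adjusted p of 0.462, against -0.81 and -2.04 over all 84 cells. The ILC1 side held only 4 and 13 cells in PV 1 and PV 2, and the part of the sides in the zone difference was not tested. With stricter cell limits, with shared barcodes kept or with up to 1 Cd3 UMI admitted 0 genes passed, and 60, 25, 26 and 28 passed without PV 1, PV 2, CV 1 and CV 2.

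**Figure D5:**
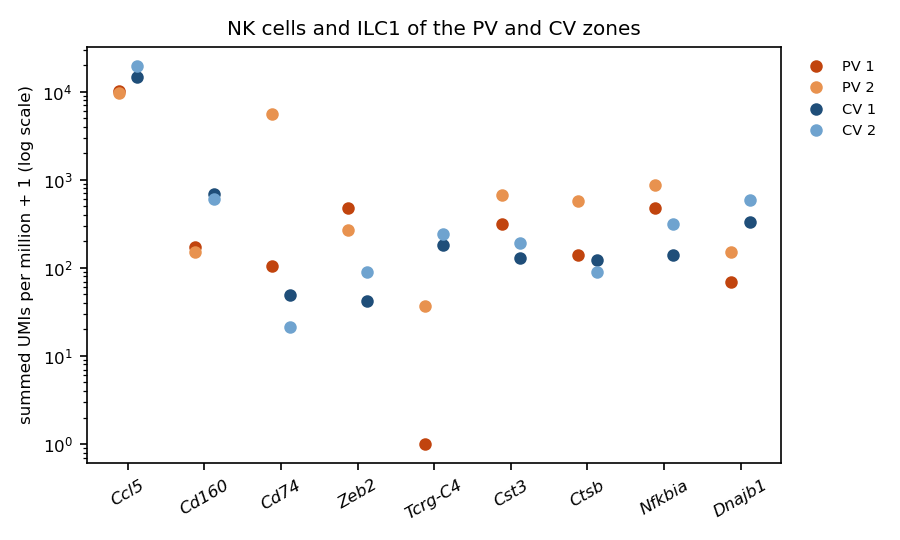
Level of the genes with the smallest p between the zones, as CPM plus 1 on a log axis, in NK cells and ILC1 of each PV library (left of each pair) and CV library (right). Ccl5 and Cd160 are lower in both PV libraries, while Cd74 is set by PV 2 alone.

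The genes with the next smallest p did not pass. Zeb2 stood at 483 and 267 CPM in the PV libraries and 40.6 and 89.0 CPM in the CV libraries (2.29 ± 0.47, edgeR adjusted p = 0.0736). Tcrg-C4 stood at 0 and 35.5 CPM in the PV libraries and 179 and 239.6 CPM in the CV libraries (-2.87 ± 0.64, 0.114), and the heat shock cochaperone Dnajb1 at 69.0 and 151 CPM in the PV libraries and 333 and 582 CPM in the CV libraries (-1.82 ± 0.44, 0.145). Cst3 and Ctsb, both of myeloid cells and lysosomes, had 1.74 ± 0.39 and 2.03 ± 0.47, with Ctsb at -0.16 without the 3 MHC class II cells of PV 2, and Nfkbia, an inhibitor of NF-kB, 1.65 ± 0.40. For none of these 6 did the libraries of the zones overlap. Among the lists, 0 of 10 granule genes passed in either direction, with Gzmb at 932 and 2239 CPM in the PV libraries and 3522 and 2054 CPM in the CV libraries (-0.74 ± 0.32) and Prf1 at -0.05 ± 0.38. None of 12 lectin receptors and none of 13 transcription factors passed. Since only 0.151% of all 1984 genes passed, 0 calls in lists this short say nothing particular about them.

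Whether the zone difference was particular to these cells was tested as an interaction with T cells of the same libraries. It differed for 60 of 7312 genes (0.821%), 46 higher (0.629%) and 14 lower (0.191%) in the NK cells and ILC1 relative to T cells. The 46 held 4 of 8 macrophage markers tested (C1qa, C1qc, Cd5l and Clec4f), the MHC class II genes H2-Aa and H2-Ab1, and Apoe. In T cells the macrophage markers summed to 7.36 and 851 CPM in the PV libraries and 1585 and 240.3 CPM in the CV libraries. Without cells with macrophage transcripts 25 genes passed, 16 higher and 9 lower. PV 2 held over 80% of the UMIs of NK cells and ILC1 for 33 of the 46. Without the 3 cells rich in MHC class II transcripts, 17 genes passed, 6 higher and 11 lower. Thinning left PV 1 with 4 NK cells and ILC1, too few to enter, so PV 2 alone stood for its zone there. In thinned cells 0 passed (207 at an unadjusted p under 0.05), DESeq2 called 5, and 12 passed without CV 1 and 23 without CV 2. Without PV 2 the balance turned over, with 13 higher and 43 lower, and 16 of these 56 genes were among the 60.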

How the data were processed

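Raw UMI counts per gene and barcode were deposited by the authors as 1 matrix per library of 32285 genes. Reads were processed with Cell Ranger 4.0.0 on build mm10, per the submitters' processing notes. Symbols matched 32158 identifiers, and 52 that share a symbol were kept apart. Cells were kept with at least 200 genes and at most 10% mitochondrial UMIs. At a doublet rate of 3%, scrublet (scanpy 1.11.5) marked 12 cells as doublets, 1 of them an NK cell or ILC1; these were kept and left out in an alternative. The members and gene lists were chosen with earlier results of these data known.

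Sums of counts per class and library, the unit of replication, were tested with edgeR 4.0.16 in R 4.3.3 (TMM, filterByExpr, Benjamini-Hochberg, threshold 0.05). The fits had 2 residual degrees of freedom, or 3 against T cells (at least 2 UMIs of Cd3d, Cd3e and Trac, no Cd79a). The estimate of spread is shared across genes, so very small p-values do not measure replication by these few libraries alone. DESeq2 1.42.0 was the other tool, and tests were tested on simulated data. Genes of the selection and of the sides were left out. Single genes of the marker lists, 1 of them an NK-side gene, are not reported here. CPM are UMIs per 1000000 of the summed class. Named were the called genes of largest fold change (12 per direction against T cells, with mean CPM of at least 100 and all libraries on 1 side; 10 between sides), without gene models that lack a proper name, for the zones also the 6 with the next smallest p, and leading members of each list; other list members, Cd3g, Trbc1 and Tcrg-C4 on the sides and the promoters were chosen after their values were seen. Summed UMIs of replicate libraries differed beyond sampling noise, at 2.09 in PV and 1.98 in CV for chi-square over its degrees of freedom. Alternatives covered cell limits, selection, doublets, depth, scaling, filters, tool and single libraries.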

Additional observations from a re-analysis of the deposited data

Results flagged for a closer look

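The difference between the zones was itself different in NK cells and ILC1 and in T cells, by edgeR's interaction test, for each of the 3 genes past the zone test. These 3 were picked by their zone difference in the same sums of NK cells and ILC1, so the interaction is not independent of it. DESeq2 called 5 genes in the interaction, 5 higher and 0 lower, so neither Ccl5 nor Cd160. The interaction had a log2 value of -0.78 for Ccl5 (edgeR adjusted p = 0.000427), which was lower in both PV libraries of NK cells and ILC1 than in both CV libraries. It was -1.86 for Cd160 (edgeR adjusted p = 0.00456), also lower in both PV libraries. It was 6.64 for Cd74 (edgeR adjusted p = 3.12e-49), which rests on 3 cells of PV 2.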

How the results depend on the processing

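The lower PV share kept its direction in every alternative, between -2.02 (thinned cells) and -0.70 (shared barcodes kept) as log2 odds, and from -1.99 to -1.23 with single libraries left out. The ILC1-side share did too, from -28.2 to -12.0 points with single libraries left out. Where that left 1 library in a zone, it was assumed to vary like the others. PV 1 was also absent from every gene test in thinned cells, where it kept 4 NK cells and ILC1. It was absent from the side test at a margin of 2 genes as well. The zone calls were the least stable. In place of 3 genes, 0 passed with shared barcodes kept, stricter cell limits, up to 1 Cd3 UMI, DESeq2, ILC1-side cells alone or the replicate block, 1 with RLE size factors or without MHC class II cells, 14 with at least 3 selection genes, 12 in thinned cells (without PV 1, which kept 4), and 60 without a filter. Libraries left out gave 25 to 60. Deviations of same-numbered libraries from their zone mean had r = -0.062 over 1989 genes. With sums from as few as 7 cells, this cannot decide whether replicate numbers pair the libraries. The replicate block gave 0 calls (94 at an unadjusted p under 0.05). Against T cells 463 became 303 in thinned cells and 302 to 439 without single libraries, the lowest without CV 2. Between the sides 33 became 18 with shared barcodes, 16 with up to 1 Cd3 UMI, 21 without doublets or macrophage-transcript cells, 13 thinned or with DESeq2, 20 without MHC class II cells, 0 at a margin of 2 genes, and 25 to 49 without single libraries. The interaction gave 39 with at least 3 selection genes, 25 without macrophage-transcript cells, 0 thinned, 17 without MHC class II cells, 5 with DESeq2 and 12 to 76 without single libraries. Reversed were Ctsb between zones (-0.16 without MHC class II cells), Napsa against B cells (-2.39) and Apoe (0.84 without macrophage-transcript cells); the cause was not tested. Leaving out MHC class II cells, ILC1-side cells alone and the robust fit were chosen after seeing the data. The robust fit called 3 zone genes, 2 of them the same, with Cd74 lost (edgeR adjusted p = 0.884). PV 1 held 7 cells in all and CV 1 held 2 NK-side cells, which limits the precision of the zone and side tests.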

Other observations

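The activating adaptors that separated NK cells and ILC1 from T cells were also high in macrophages, as a description over the same libraries. In macrophages of the PV libraries Tyrobp was at 1859 and 2199 CPM, and in those of the CV libraries at 2519 and 2547 CPM. Fcer1g was at 2479 and 2182 CPM in the PV libraries and 2458 and 2337 CPM in the CV libraries. B cells held 19.1 to 39.8 CPM of Tyrobp. Cd7 and Xcl1 reached at most 4.70 and 14.2 CPM in macrophages.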
